A study of Homo sapiens with 12 samples.

Results

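Homeobox transcription factors encoded outside the HOX clusters were followed in TC71, a human Ewing sarcoma cell line. The 54 genes were listed by symbol, and every row of the count table whose Ensembl identifier maps to one of these symbols was used. Of the 54, 43 had a row among the 21569 genes of the table, and 40 of these were among the 17084 genes tested. The other 11 (LHX1, LHX2, LHX5, LHX8, IRX1, IRX2, EMX2, EN1, EN2, GBX2 and PHOX2A) were not analysed here. Polyadenylated RNA was sequenced from 12 libraries in 4 groups of 3. The groups were a rescue line derived from ID2 knockout clone 2 (knockout, with rescue), ID2 knockout clone 2 without rescue, ID2 knockout clone 1 without rescue, and wild-type TC71 without rescue. All groups were grown alike in DMEM with serum. The study asked which genes ID2 regulates in these cells. Each knockout group is 1 clone and the rescue libraries come from 1 line, so a change made by ID2 and a difference between clones cannot be told apart within 1 clone. The labels give neither how ID2 was disrupted nor the vector or promoter of the rescue. Nor do they say whether the libraries of a group are separate cultures, and a p-value here reflects only how much these libraries vary among themselves, which may be technical.

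Homeobox proteins bind DNA through the homeodomain, a short fold of helices that reads AT-rich sequence, and most act in embryos to set the identity of a region, a tissue or a neuron type. Their classes differ in partner domains. TALE proteins pair with other homeobox proteins, LIM proteins carry zinc fingers that bind the LDB adaptors, SINE proteins act with EYA, and POU proteins have a further DNA-binding domain. ID2 has no DNA-binding domain of its own and binds E proteins, which otherwise sit at E-boxes. Ewing sarcoma is driven by a fusion of EWSR1 with an ETS gene, and its cells carry genes of several developmental programmes.

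Library totals ran from 19420408 to 29748084 counts. Values are CPM, counts relative to the TMM-scaled library size, given as mean and SD of 3 libraries. Changes are log2 fold changes with their SE from 1 edgeR quasi-likelihood fit of all 12 libraries. A gene was called higher or lower at a Benjamini-Hochberg adjusted p under 0.05 over all 17084 genes. ID2 RNA averaged 41.5 ± 0.537 CPM in the libraries labelled rescue, 50.9 ± 3.16 in clone 2, 18.1 ± 0.777 in clone 1 and 77.9 ± 0.657 in wild-type cells. ID2 was thus lower in both clones than in wild-type cells, and lower in the libraries labelled rescue than in clone 2 (log2 fold change -0.29, SE 0.047, adjusted p = 3.52e-06), which goes against that label at the RNA level. Whether RNA from the rescue construct is counted under the ID2 gene is not given in the sources used here, so this value does not measure the rescue itself. All 10 Ewing sarcoma markers had a row, and their summed levels were 1401 to 1443 CPM in the libraries labelled rescue, 1668 to 1815 in clone 2, 1379 to 1434 in clone 1 and 1466 to 1537 in wild-type cells. Single markers moved both ways within these sums. Against wild-type cells, BCL11B was at 0.37-fold, FLI1 at 0.695-fold and LIPI at 1.44-fold in clone 1, and NKX2-2 at 1.91-fold in clone 2. The blood markers PTPRC and CD14 stayed at or below 0.808 CPM in sum and the endothelial marker CDH5 at or below 0.250 CPM, and the other markers of these lists were not analysed here. The summed markers of other cell types moved with the groups, and single markers did not all follow their sum. Epithelial markers (3 of 5, with CDH1 and KRT5 not analysed here) summed to 75.9 to 85.9 CPM in the libraries labelled rescue, 146 to 178 in clone 2, 865 to 932 in clone 1 and 114 to 121 in wild-type cells. Fibroblast markers (4 of 4) summed to 106 to 114 CPM in the libraries labelled rescue, 127 to 135 in clone 2, 450.1 to 476 in clone 1 and 222 to 225 in wild-type cells. Neuronal markers (3 of 5, with SNAP25 and NEFL not analysed here) summed to 282 to 289 CPM in the libraries labelled rescue, 341 to 382 in clone 2, 390.1 to 414 in clone 1 and 208 to 224 in wild-type cells, and glial markers (4 of 4) to 7.01 to 8.02 CPM in the libraries labelled rescue, 1.52 to 2.36 in clone 2, 5.97 to 6.08 in clone 1 and 0.345 to 0.379 in wild-type cells. Within the fibroblast sum, LUM was at 0.647-fold of wild-type in clone 1, while DCN, PDGFRB and COL3A1 were at 1.34-fold, 1.66-fold and 2.55-fold. In the libraries labelled rescue against clone 2, COL3A1 was at 1.38-fold and LUM at 6.9-fold (2 reads in clone 2). PDGFRB and DCN were at 0.373-fold and 0.495-fold there. SYT1 made up most of the neuronal sum, and TUBB3, at a mean of 1.70 CPM or less, was highest in the libraries labelled rescue. The part of these marker levels in the homeobox values was not tested. In bulk RNA, fewer cells of a kind and less RNA per cell cannot be told apart.

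Losses shared by both clones included SATB1, a chromatin organiser best known in T cells, and LMX1A, a LIM factor of midbrain dopamine neurons. SATB1 stood at 0.392-fold of wild-type in clone 2 and 0.464-fold in clone 1, and LMX1A at 0.0520-fold and 0.141-fold. MSX1, a repressor with roles in tooth and palate, rose 1.71-fold in clone 2 and 2.13-fold in clone 1. POU3F2, a POU factor of neural progenitors, rose 1.83-fold in clone 2 and fell to 0.790-fold in clone 1. The upstream sequences of these 4 genes are shown because each gene had a clear shared or opposed change in the clones and its 250 upstream bases touch no annotated exon. They were chosen after the values were seen. They are from RefSeq (GRCh38.p14), written 5′ to 3′ on the strand of the gene, with E-boxes (CANNTG on either strand) in capitals.
LMX1A (chr1:165356716-165356965, minus strand): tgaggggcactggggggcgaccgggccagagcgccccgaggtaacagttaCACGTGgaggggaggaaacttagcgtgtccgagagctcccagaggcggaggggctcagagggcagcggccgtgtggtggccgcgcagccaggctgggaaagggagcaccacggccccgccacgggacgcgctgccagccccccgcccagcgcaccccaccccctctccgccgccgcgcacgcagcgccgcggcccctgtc
SATB1 (chr3:18445593-18445842, minus strand): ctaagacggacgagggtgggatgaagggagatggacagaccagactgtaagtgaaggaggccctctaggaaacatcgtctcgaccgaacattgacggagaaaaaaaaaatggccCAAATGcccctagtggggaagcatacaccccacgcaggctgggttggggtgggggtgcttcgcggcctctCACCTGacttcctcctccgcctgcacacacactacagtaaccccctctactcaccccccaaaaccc
MSX1 (chr4:4859415-4859664, plus strand): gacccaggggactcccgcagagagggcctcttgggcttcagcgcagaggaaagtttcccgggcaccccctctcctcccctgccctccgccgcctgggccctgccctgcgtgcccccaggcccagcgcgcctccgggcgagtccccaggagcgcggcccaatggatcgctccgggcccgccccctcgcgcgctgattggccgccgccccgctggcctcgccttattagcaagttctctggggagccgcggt
POU3F2 (chr6:98834324-98834573, plus strand): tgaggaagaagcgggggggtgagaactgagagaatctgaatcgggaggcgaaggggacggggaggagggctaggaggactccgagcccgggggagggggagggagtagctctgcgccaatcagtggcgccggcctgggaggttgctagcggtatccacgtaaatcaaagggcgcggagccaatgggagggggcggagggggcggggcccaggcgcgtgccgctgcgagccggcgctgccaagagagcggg
The LMX1A window shown held 1 E-box, CACGTG, and the SATB1 window shown 2, while no CANNTG was found in those of MSX1 and POU3F2. RefSeq has further windows for LMX1A, with 0 E-boxes in 1 window, and for SATB1, with 2, 3 and 0 E-boxes in 3 windows. RefSeq gave a promoter for 32 of the 43 members, with 43 windows in all because 8 members had several. CANNTG was in 15 of these 43 windows (34.9%), against 61.8% of all 34943 promoter windows of the same length. CAGCTG, which is a form of CANNTG, was in 2 of 43 (4.65%), against 14% of all windows. GGAAGGAA on either strand, a repeat of the ETS core, was in 1 of 43 (2.33%), against 3.06% of all windows. These matches describe letters in a window and not binding.

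The members were called more often than not in every comparison, as were the genes of the table at large in all but 1. In the libraries labelled rescue against clone 2, 11 of the 40 tested members were higher and 10 lower (52.5%). Of all genes tested there, 39.2% were called, 19.3% higher and 19.9% lower. Against wild-type cells, the libraries labelled rescue had 11 members higher and 15 lower (65%), where 58.4% of all genes were called, 28.5% higher and 29.9% lower. In clone 2 against clone 1, 13 members were higher and 17 lower (75%), against 62.2% of all genes, 30.3% higher and 31.9% lower. In clone 2 against wild-type cells, 10 members were higher and 17 lower (67.5%), against 62.1% of all genes, 31.5% higher and 30.6% lower. In clone 1 against wild-type cells, 13 members were higher and 17 lower (75%), against 61.5% of all genes, 30.8% higher and 30.7% lower. With calls so frequent, a member's call alone says little, and the size of the change is given with each. A member can pass the filter on low counts through the 1 group where it is high, so these shares describe the 40 only.

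**Figure D1:**
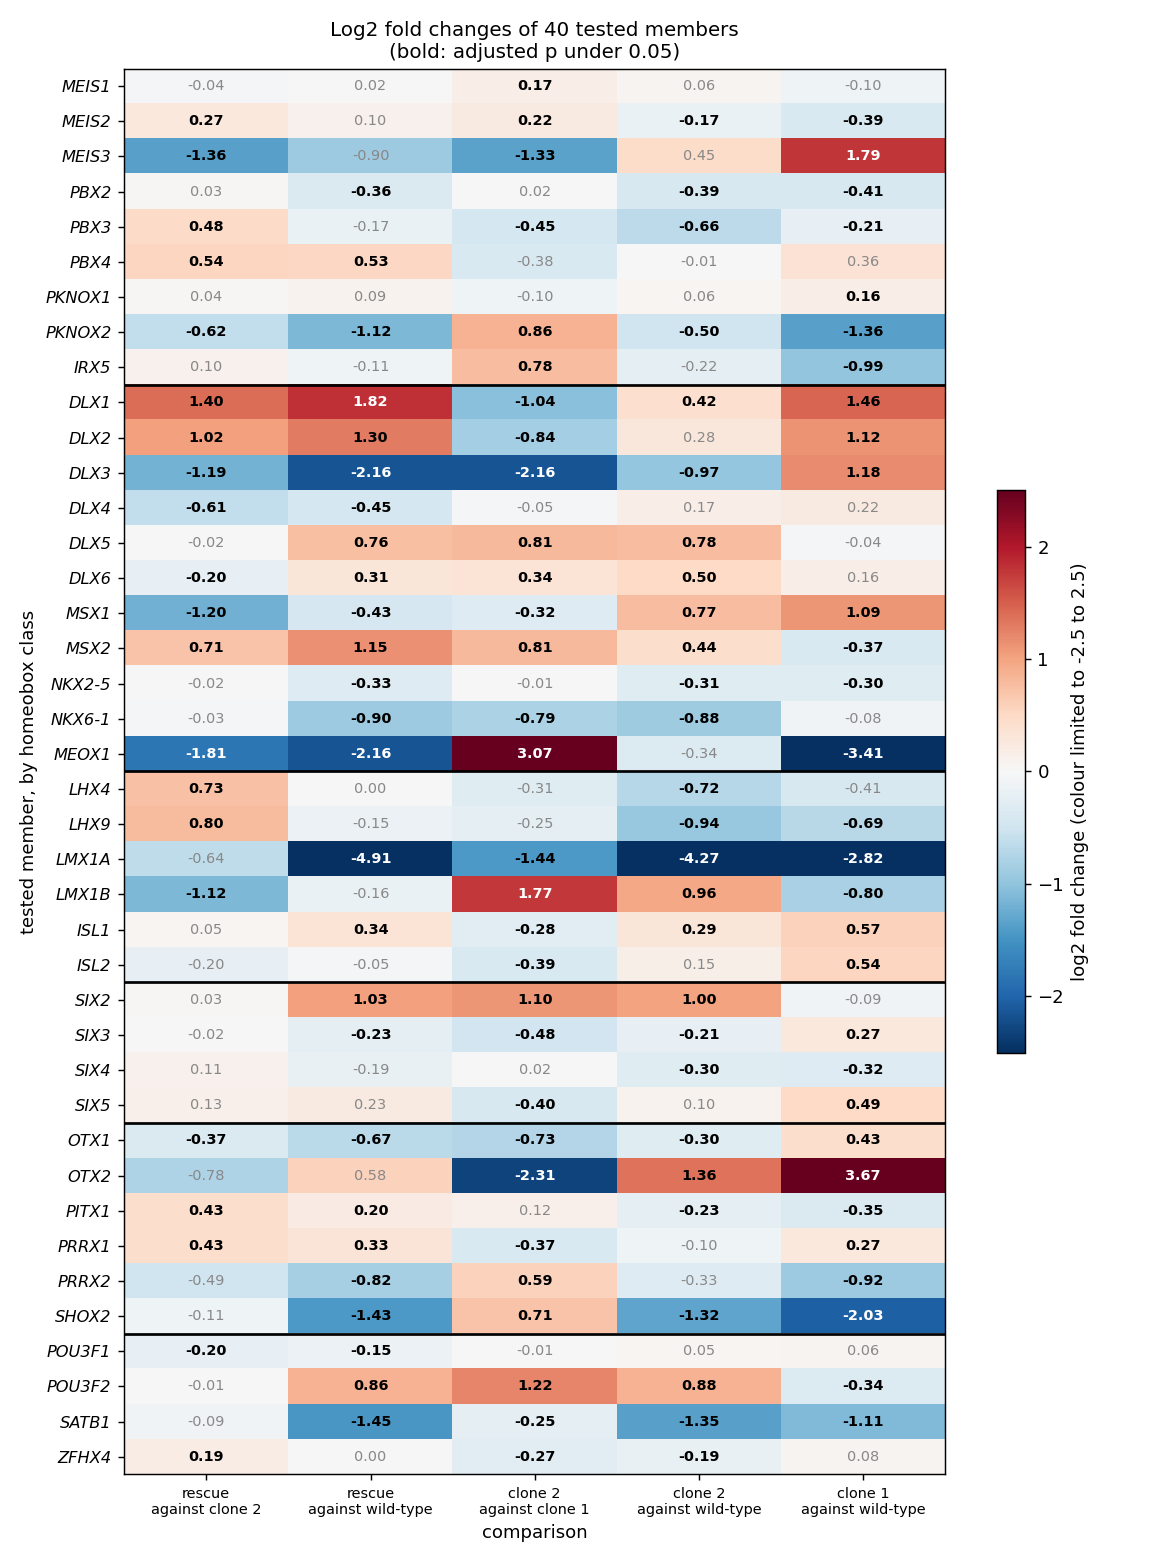
Log2 fold change of the 40 tested members (rows, by homeobox class from TALE at the top to POU and zinc finger at the bottom) in the 5 comparisons (columns); red is higher and blue lower in the group named first, and bold marks an adjusted p under 0.05. DLX1 and DLX2 are red in 4 of 5 columns, while SATB1, SHOX2 and LMX1A are blue in every column that sets a group against wild-type.

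Changes of 2-fold or more, with a call, were found for 7 members in the libraries labelled rescue against clone 2 (17.5% of those tested, against 4.95% of all genes). These were 2 higher and 5 lower, where 0.48% of all genes were that much higher and 4.47% lower. In the same libraries against wild-type cells they were 4 higher and 6 lower (25%, against 10.8% of all genes, 6.78% higher and 3.97% lower). Clone 2 against clone 1 had 4 higher and 5 lower (22.5%, against 13.9%, with 7.29% higher and 6.64% lower). Clone 2 against wild-type cells had 2 higher and 3 lower (12.5%, against 13.3%, with 10.4% higher and 2.87% lower). Clone 1 against wild-type cells had 6 higher and 5 lower (27.5%, against 13.7%, with 9.61% higher and 4.06% lower). The median log2 fold change of the members was -0.02, -0.13, -0.17, -0.14 and -0.09 in these 5 comparisons in the same order, against 0.00, 0.00, 0.00, 0.01 and 0.01 for all genes. The comparisons share libraries: both clones and the libraries labelled rescue are set against the same 3 wild-type libraries, so their calls are not independent of each other. Every tested member was called in at least 1 of the 5 comparisons, in each of which 39.2% to 62.2% of all genes were called. The share of all genes called at least once was not computed, so this is not read as a trait of the members. PKNOX2, DLX1, DLX3, MSX1, MSX2 and OTX1 were called in all 5, and MEIS1 and PKNOX1 in 1.

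Levels differed widely between members when set per kilobase of annotated exon. POU3F1, a POU factor of Schwann cells, was the highest, at 57.5 CPM per kilobase in the libraries labelled rescue, 65.9 in clone 2, 66.5 in clone 1 and 63.6 in wild-type cells. PBX2, DLX5, MSX1 and POU3F2 followed in wild-type cells, at 32.0, 25.6, 12.6 and 9.65 CPM per kilobase. OTX2 was the lowest in wild-type cells (0.0328 CPM per kilobase), below LHX6 (0.0556) and MNX1 (0.0714). By CPM without the length, 22 of the 43 members were at 10 CPM or more in the libraries labelled rescue, 19 in clone 2, 20 in clone 1 and 20 in wild-type cells. Members under 1 CPM numbered 9, 9, 8 and 6 in those groups. The summed level of the 43 members was 843 ± 17.3 CPM in the libraries labelled rescue, 848 ± 13 in clone 2, 816 ± 5.63 in clone 1 and 850.5 ± 4.41 in wild-type cells.

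**Figure D2:**
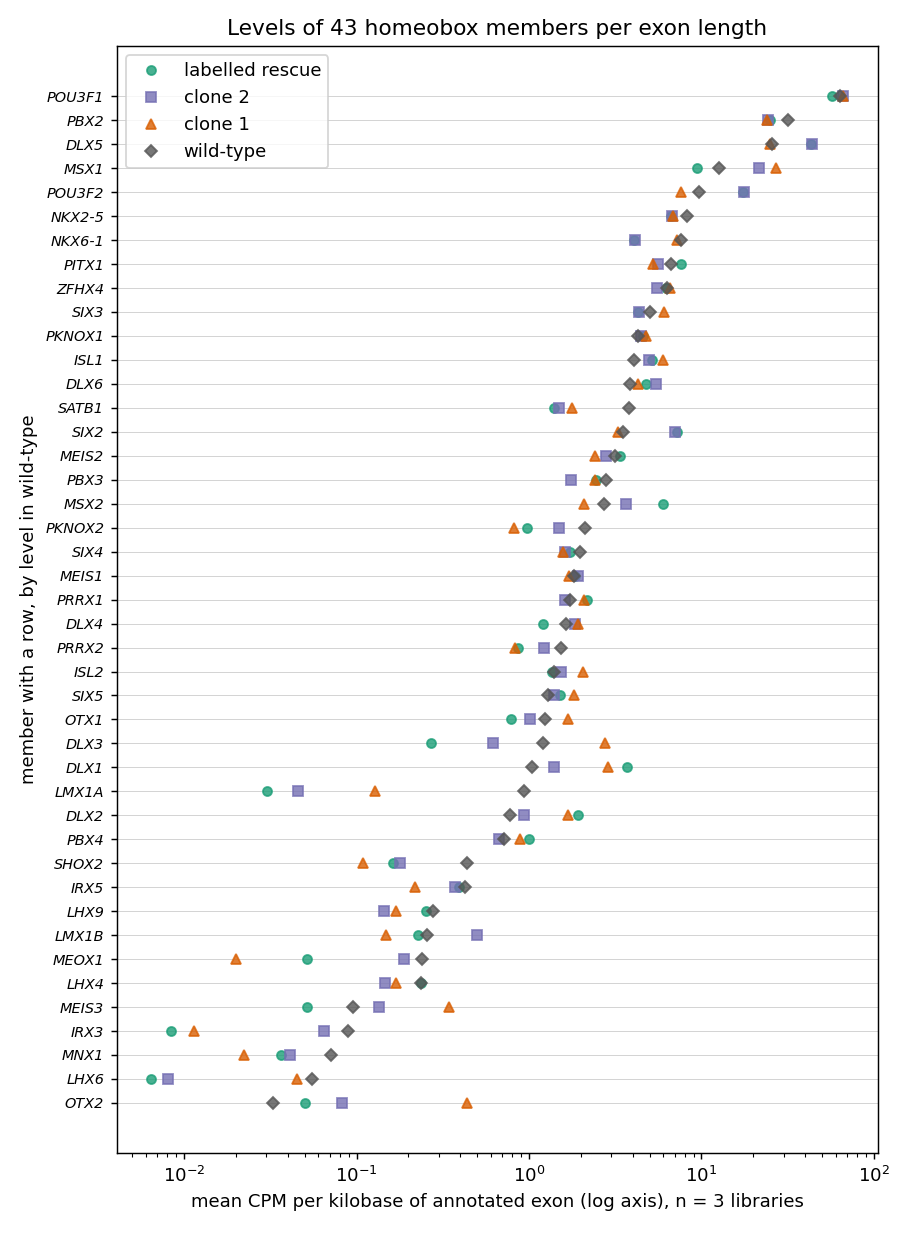
Mean CPM per kilobase of annotated exon (log axis, n = 3 libraries a group) of the 43 members with a row, ordered by their level in wild-type cells. The symbols are widest apart for LMX1A, OTX2, MEOX1, IRX3 and DLX3.

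Among the ANTP members (12 with a row, 11 tested), all 6 DLX genes were called in the libraries labelled rescue against wild-type cells, 4 higher and 2 lower, and fewer were called in either clone. Against wild-type cells, 58.4% of all genes were called in the libraries labelled rescue, 62.1% in clone 2 and 61.5% in clone 1. Of the 11 tested, 3 were higher and 5 lower in the libraries labelled rescue against clone 2, 5 and 3 in clone 2 against wild-type cells, and 4 and 3 in clone 1 against wild-type cells. The shares of all genes called were 39.2%, 62.1% and 61.5% in these comparisons. DLX genes act in the forebrain, jaw, limb and skin, and most lie in convergently transcribed pairs. DLX1 (chr2:172084740-172089677, plus strand, hg38), which with DLX2 guides interneuron development in the mouse forebrain, had 12.8, 14.4 and 13.3 CPM in the libraries labelled rescue, 5.20, 5.67 and 4.44 in clone 2, 11.2, 10.3 and 10.1 in clone 1 and 4.32, 3.55 and 3.58 in wild-type cells. The groups did not overlap, and the order from high to low was labelled rescue, clone 1, clone 2 and wild-type. Its log2 fold change was 1.40 (SE 0.0962, adjusted p = 2.08e-15) in the libraries labelled rescue against clone 2, 0.42 (SE 0.123, adjusted p = 0.00334) in clone 2 against wild-type cells and 1.46 (SE 0.106, adjusted p = 2.24e-15) in clone 1 against wild-type cells (edgeR). DLX2 (chr2:172099439-172102900, minus strand) had 6.39, 5.11 and 5.54 CPM in the libraries labelled rescue, 2.93, 2.68 and 2.78 in clone 2, 4.25, 5.90 and 4.77 in clone 1 and 2.31, 2.27 and 2.34 in wild-type cells. The libraries labelled rescue and those of clone 1 overlapped with each other and lay above all others. DLX2 rose, with log2 fold changes of 1.02 (SE 0.136, adjusted p = 8.1e-08) in the libraries labelled rescue against clone 2 and 1.12 (SE 0.145, adjusted p = 1.04e-08) in clone 1 against wild-type cells. In clone 2 against wild-type cells it was at 0.28 (SE 0.165, adjusted p = 0.137). DLX3 (chr17:49990005-49995224, minus strand), a factor of skin, hair and teeth, had 0.698, 0.814 and 0.688 CPM in the libraries labelled rescue, 1.64, 1.67 and 1.71 in clone 2, 8.20, 6.58 and 7.82 in clone 1 and 2.94, 3.601 and 3.34 in wild-type cells. It was highest in clone 1 and lowest in the libraries labelled rescue, with no overlap between any groups. Against clone 2, the libraries labelled rescue had a log2 fold change of -1.19 (SE 0.226, adjusted p = 4.51e-05). Against wild-type cells it was -0.97 (SE 0.167, adjusted p = 3.05e-06) in clone 2 and 1.18 (SE 0.125, adjusted p = 7.37e-11) in clone 1. The clones were thus called in opposite directions, and clone 2 against clone 1 gave -2.16 (SE 0.145, adjusted p = 1.47e-16).

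DLX4, DLX5 and DLX6 had no called change of 2-fold or more in any comparison. In clone 2 against wild-type cells, DLX5 and DLX6 still changed more than DLX1 and DLX2 (log2 fold changes 0.42 and 0.28). DLX5, which with DLX6 acts in jaw, limb and bone, averaged 75.8 ± 3.26 CPM in the libraries labelled rescue, 76.7 ± 0.853 in clone 2, 43.8 ± 2.69 in clone 1 and 44.7 ± 2.14 in wild-type cells. DLX6 averaged 16.5 ± 0.466 CPM in the libraries labelled rescue, 18.9 ± 0.853 in clone 2, 14.9 ± 0.333 in clone 1 and 13.3 ± 0.998 in wild-type cells. Both rose in clone 2 against wild-type cells, DLX5 by a log2 fold change of 0.78 (SE 0.0463, adjusted p = 5.65e-18) and DLX6 by 0.50 (SE 0.0693, adjusted p = 4.52e-08). Neither was called in clone 1 (-0.04 for DLX5 and 0.16 for DLX6). For DLX6 in clone 1 the adjusted p was 0.0517, and it came under 0.05 in 5 alternative settings and without 1 library. DLX4, with a role in placenta, averaged 4.42 ± 0.744 CPM in the libraries labelled rescue, 6.75 ± 0.161 in clone 2, 7.05 ± 0.542 in clone 1 and 5.99 ± 0.352 in wild-type cells. It fell in the libraries labelled rescue against clone 2 (-0.61, SE 0.116, adjusted p = 3.65e-05) and against wild-type cells (-0.45, SE 0.117, adjusted p = 0.00109).

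**Figure D3:**
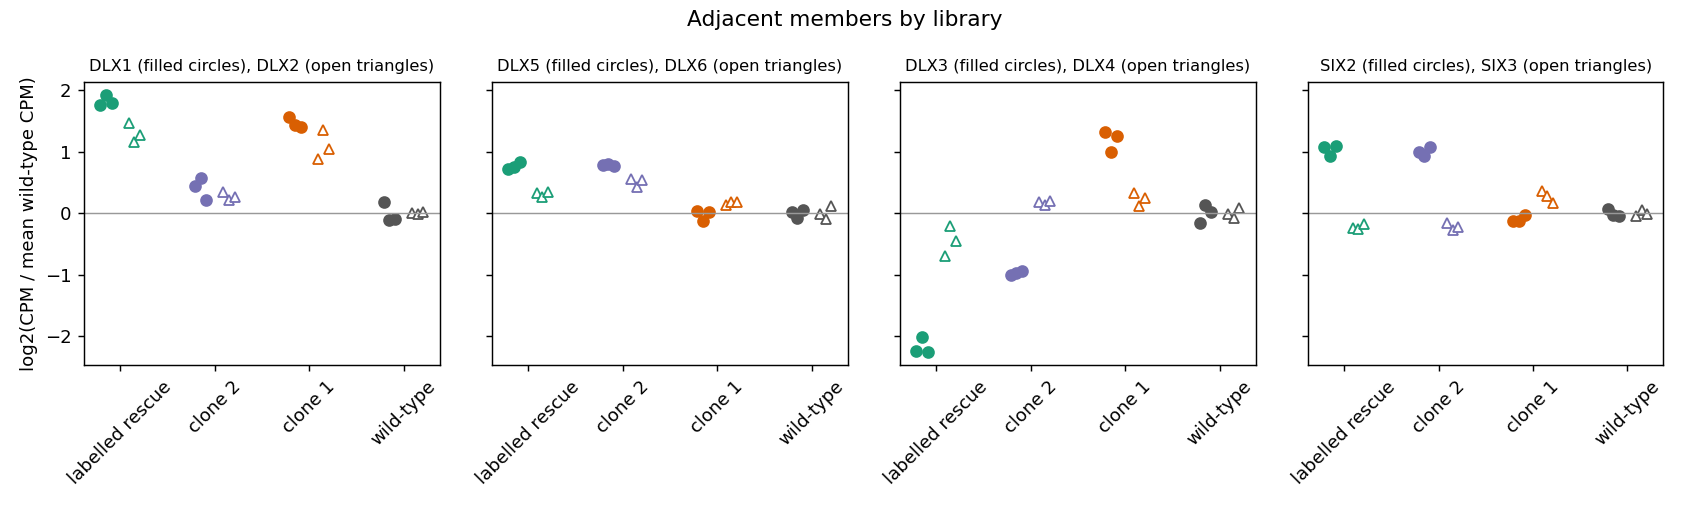
Neighbouring members by library, as log2 of the CPM over the wild-type mean CPM of the same gene; 4 panels, 1 pair each, filled circles for the first gene named and open triangles for the other. In DLX1 and DLX2, and in DLX5 and DLX6, both genes lie on the same side of the wild-type level in every library of the other groups except DLX5 in clone 1, while DLX3 and DLX4 part in clone 2 and SIX2 and SIX3 part in all 3 groups, where SIX2 was not called in clone 1.

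The plot of neighbouring members sets genes with a short gap between them side by side. DLX1 and DLX2 lie 9.76 kb apart on chromosome 2, and both were called higher in the libraries labelled rescue against clone 2 and in clone 1 against wild-type cells. DLX6 and DLX5 lie 9.35 kb apart on chromosome 7, and both were called higher in clone 2 against wild-type cells. DLX4 and DLX3 lie 15 kb apart on chromosome 17, and in clone 2 against wild-type cells DLX3 was called lower while DLX4 was at 0.17 on the log2 scale. SIX3 and SIX2 lie 59.1 kb apart on chromosome 2, and in clone 2 against wild-type cells SIX2 was called higher (1.00) and SIX3 lower (-0.21). Whether neighbours share control was not tested.

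The MSX genes, repressors of differentiation in the skull, teeth and limb, both rose in clone 2 against wild-type cells. They moved in different directions in clone 1 and in the libraries labelled rescue. MSX1 (chr4:4859666-4863936, plus strand) had 19.4, 21.4 and 19.2 CPM in the libraries labelled rescue, 46.6, 42.1 and 48.6 in clone 2, 58.0, 55.8 and 58.6 in clone 1 and 27.6, 24.9 and 27.9 in wild-type cells. It was above wild-type in both clones and below wild-type in the libraries labelled rescue, and no groups overlapped. The log2 fold change was -1.20 (SE 0.0577, adjusted p = 2.68e-20) in the libraries labelled rescue against clone 2, -0.43 (SE 0.0618, adjusted p = 1.28e-07) in the same libraries against wild-type cells, 0.77 (SE 0.0558, adjusted p = 2.08e-15) in clone 2 and 1.09 (SE 0.0542, adjusted p = 1.01e-20) in clone 1 against wild-type cells (edgeR). MSX2 (chr5:174724533-174730893, plus strand) had 15.2, 13.1 and 12.7 CPM in the libraries labelled rescue, 8.38, 7.79 and 8.84 in clone 2, 4.998, 5.05 and 4.24 in clone 1 and 5.96, 6.68 and 5.96 in wild-type cells. It was lowest in clone 1 and highest in the libraries labelled rescue, again with no overlap. MSX2 rose, with log2 fold changes of 0.71 (SE 0.0881, adjusted p = 1.45e-08) in the libraries labelled rescue against clone 2 and 0.44 (SE 0.102, adjusted p = 0.000318) in clone 2 against wild-type cells. In clone 1 against wild-type cells it fell (-0.37, SE 0.114, adjusted p = 0.00432). Set side by side, MSX1 was lower and MSX2 higher in the libraries labelled rescue than in clone 2.

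Of the remaining ANTP members, NKX6-1, a factor of motor neurons and pancreatic beta cells, averaged 12.6 ± 0.647 CPM in the libraries labelled rescue, 12.6 ± 1.599 in clone 2, 22.2 ± 1.22 in clone 1 and 23.5 ± 1.44 in wild-type cells. It fell in clone 2 against wild-type cells (log2 fold change -0.88, SE 0.0745, adjusted p = 2.15e-13, edgeR), where the genes of chromosome 4 had a median of -0.20, and was not called in clone 1 (-0.08). NKX2-5, a heart factor, averaged 13.9 ± 1.61 CPM in the libraries labelled rescue, 14.04 ± 1.03 in clone 2, 14.2 ± 1.37 in clone 1 and 17.4 ± 0.696 in wild-type cells. It fell in both clones (-0.31 in clone 2 and -0.30 in clone 1). MEOX1, a factor of somites, stayed under 1 CPM, with 11 reads over the 3 libraries labelled rescue, 35 in clone 2, 4 in clone 1 and 47 in wild-type cells. Its ratio of clone 1 to wild-type cells was 0.0869 (exact 95% counting interval 0.0227 to 0.238), and edgeR called it lower there (adjusted p = 1.04e-06). MNX1, a motor neuron factor, had 12, 12, 7 and 23 reads in the same groups and was not tested.

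**Figure D4:**
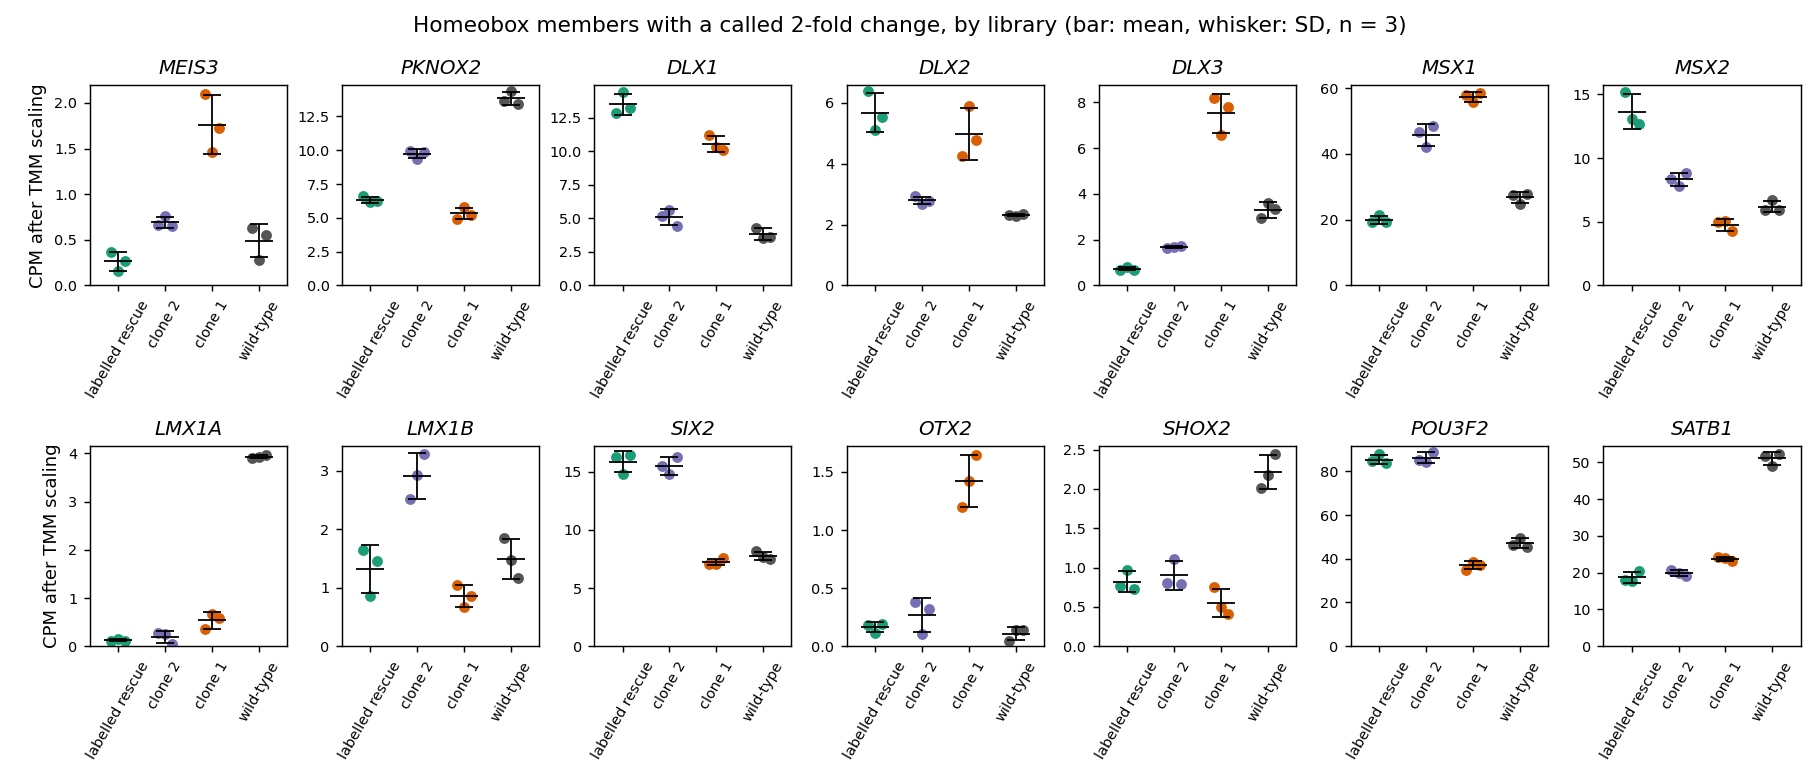
CPM after TMM scaling in each of the 12 libraries for the 14 members with a called change of 2-fold or more and at least 1 CPM in a group; dots are libraries, the bar is the mean and the whisker the SD (n = 3), and each panel has its own linear axis from 0. SATB1, LMX1A and SHOX2 are high in wild-type cells only, SIX2 and POU3F2 are high in clone 2 and the libraries labelled rescue, and DLX3, OTX2 and MEIS3 are high in clone 1.

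In the LIM class (7 with a row, 6 tested), LMX1A was the tested member furthest from wild-type in each group. LMX1A had at least 83 reads in each wild-type library and at most 19 in any other. It thus passed the filter on low counts mainly through wild-type cells, where it is high. Of the 6 tested, 2 were higher and 1 lower in the libraries labelled rescue against clone 2, 2 and 3 in clone 2 against wild-type cells, and 2 and 3 in clone 1 against wild-type cells. The shares of all genes called were 39.2%, 62.1% and 61.5% in these comparisons. LMX1A (chr1:165201867-165356715, minus strand) had 0.110, 0.155 and 0.115 CPM in the libraries labelled rescue, 0.279, 0.253 and 0.0463 in clone 2, 0.350, 0.676 and 0.576 in clone 1 and 3.901, 3.93 and 3.96 in wild-type cells. The 3 wild-type libraries were close together and far above all 9 others, which held 10 reads in all in the libraries labelled rescue, 14 in clone 2 and 40 in clone 1, against 291 in wild-type cells. Its log2 fold change was -4.91 (SE 0.298, adjusted p = 1.11e-17) in the libraries labelled rescue, -4.27 (SE 0.283, adjusted p = 1.5e-16) in clone 2 and -2.82 (SE 0.227, adjusted p = 3.96e-14) in clone 1, each against wild-type cells (edgeR). The libraries labelled rescue overlapped with clone 2 (-0.64, SE 0.589, adjusted p = 0.418). LMX1B (chr9:126614443-126701032, plus strand), its paralog in dorsal limb and serotonin neurons, had 1.65, 0.852 and 1.45 CPM in the libraries labelled rescue, 2.51, 2.94 and 3.29 in clone 2, 1.05, 0.676 and 0.864 in clone 1 and 1.85, 1.47 and 1.17 in wild-type cells. Clone 2 was above every other group, and clone 1 lay below wild-type without overlap. Against clone 2, the libraries labelled rescue had a log2 fold change of -1.12 (SE 0.206, adjusted p = 2.59e-05). Against wild-type cells it was 0.96 (SE 0.205, adjusted p = 8.89e-05) in clone 2 and -0.80 (SE 0.262, adjusted p = 0.00748) in clone 1. The clone 1 call was lost without wild-type replicate 1 or clone 1 replicate 2, with log2 fold changes of -0.63 in both cases. The paralogs thus stood on opposite sides of wild-type in clone 2.

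ISL1 and ISL2, which act in motor neurons, changed alike in clone 1. ISL1 averaged 14.8 ± 0.493 CPM in the libraries labelled rescue, 14.3 ± 0.483 in clone 2, 17.3 ± 0.360 in clone 1 and 11.7 ± 0.567 in wild-type cells. ISL2 averaged 3.01 ± 0.243 CPM in the libraries labelled rescue, 3.42 ± 0.464 in clone 2, 4.57 ± 0.209 in clone 1 and 3.12 ± 0.161 in wild-type cells. Both rose in clone 1 against wild-type cells, ISL1 by a log2 fold change of 0.57 (SE 0.07, adjusted p = 3.16e-09) and ISL2 by 0.54 (SE 0.134, adjusted p = 0.000562, edgeR). ISL1 also rose in clone 2 (0.29, SE 0.0727, adjusted p = 0.000559). An antisense gene of low count overlaps ISL2, at 0.541 CPM in the libraries labelled rescue, 0.572 in clone 2, 0.324 in clone 1 and 0.354 in wild-type cells. LHX9, a factor of the mouse gonad, averaged 2.63 ± 0.464 CPM in the libraries labelled rescue, 1.51 ± 0.117 in clone 2, 1.76 ± 0.408 in clone 1 and 2.91 ± 0.267 in wild-type cells. It fell in clone 2 (-0.94, SE 0.187, adjusted p = 3.23e-05) and clone 1 (-0.69, SE 0.179, adjusted p = 0.000902) against wild-type cells. In the libraries labelled rescue LHX9 was higher than in clone 2 (0.80, SE 0.189, adjusted p = 0.000705) and not called against wild-type (-0.15, SE 0.163, adjusted p = 0.461). LHX4, a pituitary factor, averaged 1.43 ± 0.282 CPM in the libraries labelled rescue, 0.887 ± 0.372 in clone 2, 1.02 ± 0.469 in clone 1 and 1.43 ± 0.186 in wild-type cells, with a call in clone 2 against wild-type cells (-0.72, SE 0.282, adjusted p = 0.0252) that was lost without wild-type replicate 1 (-0.63), clone 2 replicate 1 (-0.56) or clone 2 replicate 3 (-0.58) and with DESeq2 (-0.71). LHX4 shares exon bases with ACBD6 on the opposite strand. LHX6 had 3 reads in the libraries labelled rescue, 4 in clone 2, 19 in clone 1 and 23 in wild-type cells, and was not tested.

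In the TALE class (10 with a row, 9 tested), whose proteins partner HOX and PBX factors, MEIS3 and PKNOX2 had the largest called differences from wild-type among the tested members in clone 1. Of the 9 tested, 3 were higher and 2 lower in the libraries labelled rescue against clone 2, 0 and 4 in clone 2 against wild-type cells, and 2 and 5 in clone 1 against wild-type cells. The shares of all genes called were 39.2%, 62.1% and 61.5% in these comparisons. MEIS3 (chr19:47403124-47419523, minus strand), which in frog embryos acts in hindbrain patterning, had 0.367, 0.155 and 0.268 CPM in the libraries labelled rescue, 0.663, 0.759 and 0.648 in clone 2, 2.10, 1.46 and 1.73 in clone 1 and 0.629, 0.284 and 0.551 in wild-type cells. Clone 1 lay above every other library, and the libraries labelled rescue overlapped with wild-type. Against clone 2, the libraries labelled rescue had a log2 fold change of -1.36 (SE 0.381, adjusted p = 0.00396, edgeR). Against wild-type cells it was 0.45 (SE 0.337, adjusted p = 0.245) in clone 2 and 1.79 (SE 0.277, adjusted p = 4.59e-07) in clone 1. PKNOX2 (chr11:125164687-125433389, plus strand), a partner of PBX proteins, had 6.61, 6.16 and 6.27 CPM in the libraries labelled rescue, 9.98, 9.36 and 9.86 in clone 2, 4.95, 5.80 and 5.23 in clone 1 and 13.7, 14.4 and 13.4 in wild-type cells. Every group was below wild-type without overlap, clone 1 the most. PKNOX2 had log2 fold changes of -0.62 (SE 0.09, adjusted p = 4.07e-07) in the libraries labelled rescue against clone 2, -0.50 (SE 0.0797, adjusted p = 8.25e-07) in clone 2 and -1.36 (SE 0.0885, adjusted p = 6.71e-17) in clone 1 against wild-type cells. In clone 2 the genes of chromosome 11, where PKNOX2 lies, had a median log2 fold change of -0.60 against wild-type cells, and with an offset per chromosome PKNOX2 was at 0.10 there (adjusted p = 0.293). In clone 1 the median of chromosome 11 was -0.02.

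Among the other TALE members, PBX3 averaged 11.2 ± 0.825 CPM in the libraries labelled rescue, 7.98 ± 0.194 in clone 2, 10.9 ± 0.173 in clone 1 and 12.6 ± 0.678 in wild-type cells. It fell in clone 2 (-0.66, SE 0.0837, adjusted p = 7.44e-09) and clone 1 (-0.21, SE 0.0785, adjusted p = 0.0189) against wild-type cells. The clone 1 call was lost without wild-type replicate 2 (-0.18) or clone 1 replicate 2 (-0.19) and with DESeq2 (-0.21). PBX3 rose in the libraries labelled rescue against clone 2 (0.48, SE 0.0845, adjusted p = 1.09e-05). PBX2, the second most abundant member per length in wild-type cells, averaged 108 ± 2.67 CPM in the libraries labelled rescue, 106 ± 4.04 in clone 2, 104 ± 1.48 in clone 1 and 139 ± 3.63 in wild-type cells. It fell in both clones (-0.39 in clone 2 and -0.41 in clone 1), where the genes of its chromosome 6 had medians of -0.11 and -0.22. PBX4 averaged 2.55 ± 0.0893 CPM in the libraries labelled rescue, 1.72 ± 0.442 in clone 2, 2.27 ± 0.142 in clone 1 and 1.82 ± 0.655 in wild-type cells. It was called higher in the libraries labelled rescue against clone 2 (0.54, SE 0.198, adjusted p = 0.0264). That call was lost without clone 2 replicate 3 (0.38) or rescue replicate 1 or 2 (0.54 each) and with DESeq2 (0.55). MEIS2, a factor of limb and heart, averaged 36.3 ± 1.30 CPM in the libraries labelled rescue, 30.2 ± 0.674 in clone 2, 26.0 ± 1.97 in clone 1 and 33.9 ± 0.334 in wild-type cells, and fell in clone 1 (-0.39, SE 0.0548, adjusted p = 6.4e-08, edgeR). MEIS1 and PKNOX1 differed from wild-type by at most 0.16 on the log2 scale in either clone. MEIS1 averaged 20.9 ± 0.273 CPM in clone 2 and 18.7 ± 0.834 in clone 1, against 20.1 ± 1.33 in wild-type cells, and PKNOX1 averaged 33.9 ± 1.33 and 36.5 ± 2.28, against 32.7 ± 1.14. IRX5, of heart and retina, averaged 1.12 ± 0.159 CPM in the libraries labelled rescue, 1.05 ± 0.211 in clone 2, 0.619 ± 0.174 in clone 1 and 1.21 ± 0.0654 in wild-type cells, and fell in clone 1 (-0.99, SE 0.271, adjusted p = 0.00159). IRX3 had 2, 14, 2 and 19 reads in the libraries labelled rescue, clone 2, clone 1 and wild-type cells and was not tested. Its ratio of clone 1 to wild-type cells was 0.107 (exact 95% counting interval 0.0121 to 0.446, counting error only).

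All 4 SINE members were tested, and SIX2 changed most in the libraries labelled rescue and in clone 2 against wild-type cells. Of the 4 tested, 0 were higher and 0 lower in the libraries labelled rescue against clone 2, 1 and 2 in clone 2 against wild-type cells, and 2 and 1 in clone 1 against wild-type cells. The shares of all genes called were 39.2%, 62.1% and 61.5% in these comparisons. SIX2 (chr2:45005161-45009430, minus strand), which keeps kidney progenitors undifferentiated, had 16.3, 14.8 and 16.5 CPM in the libraries labelled rescue, 15.5, 14.8 and 16.3 in clone 2, 7.10, 7.11 and 7.57 in clone 1 and 8.18, 7.63 and 7.48 in wild-type cells. Clone 2 and the libraries labelled rescue shared 1 range and lay above clone 1 and wild-type, which shared another. Against clone 2, the libraries labelled rescue had a log2 fold change of 0.03 (SE 0.0704, adjusted p = 0.773, edgeR). Against wild-type cells it was 1.00 (SE 0.0806, adjusted p = 4.69e-14) in clone 2 and -0.09 (SE 0.092, adjusted p = 0.39) in clone 1. SIX3, a forebrain and eye factor, averaged 10.8 ± 0.298 CPM in the libraries labelled rescue, 10.9 ± 0.414 in clone 2, 15.3 ± 1.00 in clone 1 and 12.7 ± 0.469 in wild-type cells. It was called lower in clone 2 (-0.21, SE 0.0777, adjusted p = 0.0183) and higher in clone 1 (0.27, SE 0.0729, adjusted p = 0.00158). The clone 2 call was lost without wild-type replicate 2 (-0.19) and with upper quartile scaling (-0.14). SIX4 averaged 11.5 ± 0.813 CPM in the libraries labelled rescue, 10.7 ± 0.959 in clone 2, 10.4 ± 1.38 in clone 1 and 13.1 ± 0.672 in wild-type cells. It fell in both clones (-0.30 in clone 2 and -0.32 in clone 1). SIX5 averaged 5.37 ± 0.735 CPM in the libraries labelled rescue, 4.94 ± 0.361 in clone 2, 6.47 ± 0.285 in clone 1 and 4.57 ± 0.597 in wild-type cells. It was called in clone 1 (0.49, SE 0.119, adjusted p = 0.000416). The antisense gene DM1-AS overlaps SIX5, at 0.466 CPM in the libraries labelled rescue, 0.703 in clone 2, 0.569 in clone 1 and 0.343 in wild-type cells. None of the SINE members was called in the libraries labelled rescue against clone 2, where 19.9% of all genes were called lower and 19.3% higher. None of the 4 passed an unadjusted p under 0.05 in edgeR there, and 0 of 4 were called by the DESeq2 Wald test or by limma-voom.

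The PRD members (6 with a row, all tested) included OTX2, which had the largest rise of any tested member in clone 1. OTX2 had 24, 40 and 40 reads in the clone 1 libraries and at most 11 in any other. It thus passed the filter on low counts only through the group where it is high, and its rank describes the tested members only. Of the 6 tested, 2 were higher and 1 lower in the libraries labelled rescue against clone 2, 1 and 3 in clone 2 against wild-type cells, and 3 and 3 in clone 1 against wild-type cells. The shares of all genes called were 39.2%, 62.1% and 61.5% in these comparisons. OTX2 (chr14:56799905-56810479, minus strand), a head and eye organiser, had 0.183, 0.116 and 0.191 CPM in the libraries labelled rescue, 0.384, 0.101 and 0.324 in clone 2, 1.20, 1.42 and 1.65 in clone 1 and 0.0419, 0.142 and 0.138 in wild-type cells. These are low counts, with 13 reads in the libraries labelled rescue, 20 in clone 2, 104 in clone 1 and 8 in wild-type cells. Only clone 1 stood clear of the rest. The ratio of scaled counts was 1.52 (exact 95% counting interval 0.583 to 4.22) for the libraries labelled rescue, 2.64 (1.11 to 6.93) for clone 2 and 13.3 (6.49 to 31.6) for clone 1, each over wild-type cells. The log2 fold change was 3.67 (SE 0.406, adjusted p = 2.63e-10) in clone 1 and 1.36 (SE 0.582, adjusted p = 0.0413) in clone 2 (edgeR), where clone 2 overlapped with wild-type and the call was lost without wild-type replicate 1 (log2 fold change 0.99) or 3 (1.605) and without clone 2 replicate 1 (0.96) or 3 (1.254). It was also lost without the filter, with DESeq2 and with limma-voom. SHOX2 (chr3:158095954-158106503, minus strand), of limb and cardiac pacemaker, had 0.771, 0.969 and 0.726 CPM in the libraries labelled rescue, 0.803, 1.11 and 0.787 in clone 2, 0.750, 0.498 and 0.412 in clone 1 and 2.01, 2.18 and 2.45 in wild-type cells. All 9 libraries outside wild-type were below the 3 wild-type ones. Against wild-type cells the libraries labelled rescue had a log2 fold change of -1.43 (SE 0.221, adjusted p = 4.7e-07). Clone 2 had -1.32 (SE 0.224, adjusted p = 2.48e-06) and clone 1 -2.03 (SE 0.247, adjusted p = 2.47e-09). RSRC1, which overlaps SHOX2 on the opposite strand, averaged 43.7 CPM in the libraries labelled rescue, 37.5 in clone 2, 41.5 in clone 1 and 47.3 in wild-type cells, and without the strand setting reads of the pair cannot be told apart.

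OTX1, of the cortex, averaged 3.80 ± 0.172 CPM in the libraries labelled rescue, 4.89 ± 0.0769 in clone 2, 8.17 ± 0.399 in clone 1 and 6.01 ± 0.365 in wild-type cells. It was called lower in the libraries labelled rescue against clone 2 (-0.37, SE 0.117, adjusted p = 0.0114), lower in clone 2 (-0.30, SE 0.109, adjusted p = 0.0157) and higher in clone 1 (0.43, SE 0.0986, adjusted p = 0.000217) against wild-type cells (edgeR). The first of these calls was lost without rescue replicate 2 (-0.32) and with an offset per chromosome (-0.27), and the clone 2 call with upper quartile scaling (-0.23). PITX1, a hindlimb factor, averaged 26.9 ± 0.981 CPM in the libraries labelled rescue, 19.7 ± 2.01 in clone 2, 18.4 ± 1.43 in clone 1 and 23.4 ± 1.62 in wild-type cells. It fell in clone 2 (-0.23) and clone 1 (-0.35) against wild-type cells while the libraries labelled rescue were above clone 2 (0.43, SE 0.067, adjusted p = 1.41e-06). PRRX1, of limb mesenchyme, averaged 17.9 ± 0.884 CPM in the libraries labelled rescue, 13.3 ± 0.620 in clone 2, 17.1 ± 1.2 in clone 1 and 14.2 ± 1.10 in wild-type cells. It rose in the libraries labelled rescue against clone 2 (0.43, SE 0.0735, adjusted p = 6.93e-06) and in clone 1 against wild-type cells (0.27, SE 0.0733, adjusted p = 0.00152). PRRX2 averaged 1.14 ± 0.0570 CPM in the libraries labelled rescue, 1.61 ± 0.292 in clone 2, 1.08 ± 0.229 in clone 1 and 2.02 ± 0.147 in wild-type cells. It fell in clone 1 (-0.92, SE 0.212, adjusted p = 0.000257) and in the libraries labelled rescue (-0.82, SE 0.205, adjusted p = 0.000643) against wild-type cells.

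In the POU, CUT and zinc finger classes, POU3F2 and SATB1 changed and POU3F1 and ZFHX4 gave log2 fold changes between -0.27 and 0.19 over the 5 comparisons. Of the 4 tested, 1 was higher and 1 lower in the libraries labelled rescue against clone 2, 1 and 2 in clone 2 against wild-type cells, and 0 and 2 in clone 1 against wild-type cells. The shares of all genes called were 39.2%, 62.1% and 61.5% in these comparisons. POU3F2 (chr6:98834592-98839470, plus strand) had 84.5, 87.9 and 83.7 CPM in the libraries labelled rescue, 85.3, 84.2 and 89.0 in clone 2, 35.1, 38.6 and 37.2 in clone 1 and 46.4, 49.7 and 45.2 in wild-type cells. Clone 2 and the libraries labelled rescue overlapped and lay far above wild-type, and clone 1 lay below it. Against clone 2, the libraries labelled rescue had a log2 fold change of -0.01 (SE 0.0408, adjusted p = 0.825, edgeR). Against wild-type cells it was 0.88 (SE 0.0439, adjusted p = 2.06e-20) in clone 2 and -0.34 (SE 0.0482, adjusted p = 7.6e-08) in clone 1. Clone 2 against clone 1 gave 1.22 (SE 0.0454, adjusted p = 6.1e-25). SATB1 (chr3:18345387-18445588, minus strand) had 18.0, 17.9 and 20.4 CPM in the libraries labelled rescue, 20.8, 19.99 and 19.2 in clone 2, 24.2, 23.9 and 23.2 in clone 1 and 51.8, 49.1 and 52.3 in wild-type cells. Every library outside wild-type was well below the 3 wild-type ones, and the libraries labelled rescue overlapped with clone 2. SATB1 had log2 fold changes of -0.09 (SE 0.0629, adjusted p = 0.248) in the libraries labelled rescue against clone 2, -1.35 (SE 0.0553, adjusted p = 3.26e-23) in clone 2 and -1.11 (SE 0.0535, adjusted p = 4.62e-21) in clone 1 against wild-type cells. With an offset per chromosome the libraries labelled rescue were lower than clone 2 (-0.20, adjusted p = 0.00996). The genes of its chromosome 3 had medians against wild-type cells of -0.20 in clone 2 and -0.11 in clone 1. TBC1D5 shares exons with SATB1 on the same strand, and averaged 111 CPM in the libraries labelled rescue, 110.1 in clone 2, 83.2 in clone 1 and 72.4 in wild-type cells, above wild-type in the groups where SATB1 was below.

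POU3F1 averaged 126 ± 1.56 CPM in the libraries labelled rescue, 144 ± 9.61 in clone 2, 145 ± 5.22 in clone 1 and 139 ± 3.30 in wild-type cells. It was called only in the libraries labelled rescue, against clone 2 (-0.20, SE 0.0387, adjusted p = 5.4e-05) and against wild-type cells (-0.15, SE 0.0386, adjusted p = 0.0011). ZFHX4, a large zinc finger homeobox protein of muscle and nerve, averaged 98.1 ± 12.3 CPM in the libraries labelled rescue, 86.3 ± 4.78 in clone 2, 104 ± 4.82 in clone 1 and 98.5 ± 0.617 in wild-type cells. It was called lower in clone 2 against wild-type cells (-0.19, SE 0.0532, adjusted p = 0.00194), where the genes of chromosome 8 had a median of -0.22. With an offset per chromosome it was at 0.031 there (adjusted p = 0.64).

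Partners of these factors were followed in a list of 23 cofactors, of which 20 had a row and 19 were tested. In the libraries labelled rescue against clone 2, 9 were higher and 7 lower (84.2%, against 39.2% of all genes), and against wild-type cells 10 were higher and 7 lower (89.5%, against 58.4%). In clone 2 against wild-type cells 9 were higher and 3 lower (63.2%, near the 62.1% of all genes), and in clone 1 against wild-type cells 9 were higher and 6 lower (78.9%, against 61.5%). Without wild-type replicate 3, 5 cofactors were lower in clone 2. Called changes of 2-fold or more were fewer, at 10.5% of the 19 in the libraries labelled rescue against clone 2 (4.95% of all genes). The share was 10.5% in these libraries and in clone 2 and 15.8% in clone 1 against wild-type cells (10.8%, 13.3% and 13.7% of all genes). The list was chosen with earlier results of these data known, so these shares describe the listed genes only. Among the partners of SINE proteins, EYA4, a phosphatase and coactivator, averaged 8.40 ± 0.996 CPM in the libraries labelled rescue, 3.94 ± 0.587 in clone 2, 3.84 ± 0.254 in clone 1 and 0.604 ± 0.116 in wild-type cells. It rose in every group against wild-type cells. The log2 fold change was 3.81 (SE 0.176, adjusted p = 2.01e-21) in the libraries labelled rescue, 2.73 (SE 0.208, adjusted p = 9.18e-15) in clone 2 and 2.68 (SE 0.208, adjusted p = 1.58e-14) in clone 1 (edgeR). DACH2, a corepressor in the same network, averaged 0.153 ± 0.102 CPM in the libraries labelled rescue, 0.393 ± 0.103 in clone 2, 1.22 ± 0.0404 in clone 1 and 4.02 ± 0.481 in wild-type cells. It fell in every group against wild-type cells, with log2 fold changes of -4.68 (SE 0.286, adjusted p = 1.2e-17) in the libraries labelled rescue, -3.36 (SE 0.245, adjusted p = 2.45e-15) in clone 2 and -1.72 (SE 0.191, adjusted p = 2.73e-10) in clone 1. EYA4 and DACH2 thus moved apart. TLE2, a Groucho corepressor, averaged 8.74 ± 0.425 CPM in the libraries labelled rescue, 17.1 ± 0.399 in clone 2, 32.5 ± 1.80 in clone 1 and 15.6 ± 1.58 in wild-type cells, and rose in clone 1 (1.07, SE 0.0652, adjusted p = 1e-17). The LIM cofactors LMO2 and SSBP4 rose by 0.61 and 0.54 (log2) in clone 1, and MAGED1, a DLX and MSX partner, had -0.51 there.

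Of 16 homeobox genes outside the 54, listed for comparison, 15 had a row and all of these were tested. In clone 2 against wild-type cells 3 were higher and 6 lower (60%), and in clone 1 the counts were the same, near the 62.1% and 61.5% of all genes called in clone 2 and clone 1. ZEB1, a zinc finger homeobox repressor of epithelial genes, averaged 9.62 ± 0.841 CPM in the libraries labelled rescue, 15.3 ± 0.402 in clone 2, 3.29 ± 0.775 in clone 1 and 6.84 ± 0.554 in wild-type cells, with log2 fold changes of 1.17 (SE 0.0957, adjusted p = 8.21e-14) in clone 2 and -1.03 (SE 0.127, adjusted p = 3.89e-09) in clone 1 against wild-type cells (edgeR). ZFHX2 averaged 6.66 ± 0.250 CPM in the libraries labelled rescue, 9.41 ± 0.863 in clone 2, 1.98 ± 0.228 in clone 1 and 3.19 ± 0.509 in wild-type cells, with 1.54 (SE 0.118, adjusted p = 1.06e-14) and -0.69 (SE 0.159, adjusted p = 0.00025). In both genes clone 2 was above and clone 1 below wild-type, the same order as for POU3F2, LMX1B and MSX2 among the members. The summed epithelial markers given above were highest in clone 1, where ZEB1 was lowest. In clone 2, where ZEB1 was highest, KRT8, KRT18 and EPCAM were also above wild-type (2.19-fold, 1.31-fold and 2.21-fold). In the libraries labelled rescue ZEB1 was at 1.41-fold of wild-type and the same markers were at 0.530-fold, 0.709-fold and 0.508-fold. Whether ZEB1 and these markers are linked was not tested. ZFHX3, ZHX1, TGIF1 and ADNP2 had log2 fold changes of 0.75, -0.65, -0.31 and -0.20 in clone 1 and of 0.16, -0.54, -0.63 and -0.58 in clone 2, where ZFHX3 was not called. The genes of chromosome 18, where TGIF1 and ADNP2 lie, had a median of -0.36 in each clone against wild-type cells. For chromosome 8, where ZHX1 lies, it was -0.21 in clone 1 and -0.22 in clone 2. For chromosome 16, where ZFHX3 lies, it was 0.097 and 0.072.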

How the data were processed

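Polyadenylated RNA of TC71 cells was made into libraries with a stranded mRNA kit, per the labels' protocols. Per the submitters' processing notes, FastQC and STAR were used, with build hg38. How reads were counted, on which strand and with which annotation, and how the table was filtered, is not given in the sources used here. The authors deposited raw counts per gene with Ensembl identifiers, 1 column per library. Of the 21569 rows, 20717 matched a symbol, and 20825 were in GENCODE release 29, which gave coordinates on hg38. Groups were taken from the sample titles.

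Counts were tested with edgeR 4.0.16 (quasi-likelihood test, R 4.3.3) with TMM scaling, the filterByExpr filter (minimum count 10) and 1 mean per group over all 12 libraries, with 8 residual degrees of freedom. The 17084 genes kept held at least 99.93% of each library's counts, with a common biological coefficient of variation of 2.95%. Within groups the chi-square per degree of freedom ran from 1.58 to 3.40, above sampling noise, so no library was taken as a second sequencing of another. This value cannot tell separate cultures from separate libraries of the same culture. P-values were adjusted by Benjamini-Hochberg over all genes tested. The script was tested on simulated counts. Counting intervals cover counting error only.

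Members were given library by library when called at 2-fold or more with a mean of at least 1 CPM in a group. Of the cofactors and other homeobox genes up to 6 were named, by the largest called change in a clone. The members and lists were chosen with earlier results of these data known. Overlapping and antisense genes are uncertain without a strand setting, and 11 of the 43 members share exon bases with another annotated gene.

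The alternatives changed the scaling (upper quartile, or size factors of DESeq2, within edgeR), the filter (none, or at least 1 CPM in 3 libraries) and the tool (limma-voom of limma 3.58.1, or the Wald test of DESeq2 1.42.0). Others fitted only the 2 groups compared, added a replicate block or an offset per chromosome, or left out each library in turn. A fit without the libraries labelled rescue was added after seeing the data.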

Additional observations from a re-analysis of the deposited data

Results flagged for a closer look

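Of the 40 tested members, 6 were called in opposite directions in the clones, each against the same wild-type libraries, and all 6 also differed between the clones in the test of clone 2 against clone 1 (edgeR, adjusted p under 0.05). The share of all genes called in opposite directions was not computed. Against wild-type cells, 31.5% of all genes were higher and 30.6% lower in clone 2, and 30.8% and 30.7% in clone 1. The 6 are therefore not read as a trait of the members. DLX3 was lower in clone 2 and higher in clone 1 than in wild-type cells, with a log2 fold change of clone 2 against clone 1 of -2.16 (SE 0.145, adjusted p = 1.47e-16). OTX1 (-0.73, SE 0.104, adjusted p = 7.09e-08) and SIX3 (-0.48, SE 0.0756, adjusted p = 6.75e-07) had the same order, clone 2 below and clone 1 above wild-type. POU3F2 was higher in clone 2 and lower in clone 1, with 1.22 (SE 0.0454, adjusted p = 6.1e-25). LMX1B (1.77, SE 0.231, adjusted p = 1.32e-08) and MSX2 (0.81, SE 0.108, adjusted p = 2.11e-08) shared that order. For SIX3 and OTX1 the call in clone 2 against wild-type cells was lost with upper quartile scaling (log2 fold change -0.14 for SIX3 and -0.23 for OTX1), and for LMX1B the call in clone 1 was lost without wild-type replicate 1 or clone 1 replicate 2 (-0.63 in both cases).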

How the results depend on the processing

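The 200 fold changes of the 40 tested members were recomputed in 4308 alternative fits of a value. Of these values, 4209 kept their side of the threshold, and a change of sign without a call in either fit is counted among them. With the sign kept, 60 lost a call and 35 gained one. A further 4 changed sign with a call in either the main fit or the alternative. All 4 came from the offset per chromosome: PKNOX2 in clone 2 against wild-type cells (0.10), ZFHX4 in clone 2 (0.031) and in the libraries labelled rescue (0.20) against wild-type cells, and PBX2 in clone 2 against clone 1 (-0.086). Among the members given by library, the calls lost were of OTX2 in clone 2, PKNOX2 in clone 2 (with the offset per chromosome) and LMX1B in clone 1 against wild-type cells and of SHOX2 in clone 2 against clone 1, and the cause was not tested. Leaving out 1 library ended 16 of the 134 calls in at least 1 fit. The counts of members higher ranged over 9 to 11 in the libraries labelled rescue against clone 2, 10 to 12 in these against wild-type cells, 10 to 13 in clone 2 against clone 1, 9 to 11 in clone 2 and 12 to 14 in clone 1 against wild-type cells, and the counts lower over 8 to 10, 15 to 17, 16 to 18, 16 to 17 and 16 to 17. The cofactors lower in clone 2 against wild-type cells ranged from 2 to 5, against 3 with all libraries. Every other count of members, cofactors or genes stayed within 1.5 times under every alternative. The replicate block gave 11 higher and 10 lower members in the libraries labelled rescue against clone 2, 11 and 15 in these against wild-type cells, 13 and 17 in clone 2 against clone 1, 10 and 17 in clone 2 and 14 and 17 in clone 1 against wild-type cells, and the only member call it changed was that of DLX6 in clone 1 (log2 fold change 0.17). The numbers in the titles were not taken to pair the libraries. No pair of groups had 3 correlations of deviations over 0.1 each between libraries of equal number. Over genes at 1 CPM or more, those between clone 2 and clone 1 were 0.0541, 0.101 and 0.101. Between clone 2 and wild-type cells they were -0.0163, 0.109 and 0.136. Those of unequal number between the clones ran from -0.0856 to -0.0154. Whether libraries of equal number share a batch cannot be told from these values. Members under about 1 CPM rest on few reads, and for OTX2, LMX1A, MEOX1, IRX3, MNX1 and LHX6 depth limits the precision.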
